A study of Mus musculus with 4 samples.

Results

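Oxidative phosphorylation is the pathway by which mitochondria make ATP from the oxidation of nutrients. Complexes I to IV, the respiratory chain, pass electrons from NADH and succinate through ubiquinone and cytochrome c to oxygen, and complexes I, III and IV pump protons across the inner membrane. Complex V, the ATP synthase, makes ATP as protons flow back. Most subunits are encoded by nuclear genes, and a small core of complexes I, III, IV and V is encoded by mitochondrial DNA. Complex II, which is also the succinate dehydrogenase of the citric acid cycle, has nuclear subunits only. Several subunits of complex IV exist as a general isoform and as one that is typical of tissues such as heart and skeletal muscle, lung or testis. Blood stem cells in marrow are known for a low respiratory activity, which increases when they leave quiescence and differentiate.

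The genes described here are the nuclear genes of these subunits, found by a pattern of gene symbols (Nduf, Sdh, Uqcr, Cyc1, Cox4 to Cox8 and Atp5) in the annotation of an Agilent mouse oligonucleotide array. The pattern matched 86 of 24287 gene symbols, with 129 of 55677 probes. Of these symbols, 3 are no subunit of a complex. Cox4nb is a gene beside Cox4i1, Atp5s encodes a factor that binds ATP synthase, and Atp5sl encodes a protein since assigned to the assembly of complex I. This left 83 subunits, 35 of complex I, 4 of complex II, 9 of complex III, 20 of complex IV and 15 of complex V. Ndufa4 and Ndufa4l2, named after complex I, were counted with complex IV, to which Ndufa4 has since been assigned. The pattern did not take the subunit genes Ndufab1 and Usmg5 or the genes of mitochondrial DNA, which are given apart.

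RNA came from LSK cells, the marrow cells without lineage markers that carry Sca-1 and c-Kit and hold the blood stem and early progenitor cells. There were 2 arrays of LSK cells labelled EZH1 knockout and 2 arrays of control LSK cells. Cells of both groups were isolated by fluorescence-activated sorting from mice of the strain C57Bl/6J. Ezh1 is a histone methyltransferase of polycomb repressive complex 2. The deleted part of the gene, any Cre driver, the genotype of the controls, and the age and sex of the mice are not stated in the sources used, nor whether replicates came from separate animals. The p-values below therefore rest on the spread between samples that may differ only technically. The brightest of 4 Ezh1 probes had intensities of 2069 and 3729.9 in the knockout samples and 2658 and 2620.2 in the control samples (log2 fold change 0.27). With the deleted part unknown, this does not check the labels, and knockout arrays means the arrays so labelled.

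The 75th percentile of intensity, to which each array was scaled, ranged from 1095 to 1690 over the 4 arrays. The limit of detection, set at the 20th percentile of each array, ranged from 12.4 to 87.3. Intensities are given as deposited, before scaling, in the order of replicates 1 and 2. Knockout array 1 had the lowest 75th percentile, so its unscaled values read low. Fold changes, and statements that arrays were higher, lower or did not overlap, refer to scaled values. Of 11 markers of the labelled cells, 10 were detected on all 4 arrays. Kit, the receptor c-Kit, had intensities of 6793 and 8269.9 in the knockout samples and 13819 and 9824 in the control samples, and Ly6a, which encodes Sca-1, of 3700.5 and 2768 in the knockout samples and 2094 and 2484 in the control samples. Of the 11, 2 were higher and 9 lower on the knockout arrays (median log2 fold change -0.21), with Kit lower (-0.44) and Ly6a higher (0.69) on both. None of them passed the test. Most markers of neutrophils, B cells, T and NK cells and monocytes were higher on the knockout arrays, and those of erythroid cells and megakaryocytes were mixed. All 16 neutrophil markers were higher on the knockout arrays, with a median log2 fold change of 2.30. Of these, 15 were at a limma unadjusted p under 0.05 (4.71% of all genes) and 0 after adjustment. Their summed intensity was 152197 and 201163 on the knockout arrays against 80823 and 86266 on the controls. All 10 B cell markers were higher as well (median 1.53), with sums of 10781 and 14096 against 8913 and 8112. Of 8 measured T and NK cell markers all were higher (median 0.66), with sums of 4540 and 5491 against 3903 and 3497, and of 6 measured monocyte markers 5 were (median 0.80), with sums of 48713 and 55039 against 37332 and 38093. Of 10 erythroid markers 3 were higher and 7 lower (median -0.14), with sums of 149137 and 185100 against 272276 and 166999, and of 6 megakaryocyte markers 2 were higher and 4 lower (median -0.06), with sums of 12195 and 19869 against 23945 and 15166. None of these markers was at 0 on an array, and their part in the values below was not tested. Of the measured neutrophil, B cell and T and NK cell markers, 15 of 16, 9 of 10 and 7 of 8 were detected on all 4 arrays. Mmp9, Ms4a1 and Cd5 were below the limit of detection on control array 2. They passed the filter for dim probes only through the knockout arrays, where they were higher. In such sorted pools a change in the mix of cells and a change in the RNA of each cell cannot be told apart.

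LSK cells of both groups expressed the pathway broadly, and most of its genes differed little between the groups. All 75 general subunits, those with no restriction to a tissue, were detected on all 4 arrays, and 74 of them lay above the 75th percentile of every array, against 6479 of 19287 genes measured by a kept probe. The exception was Sdhd, on control array 2 alone. Of the 8 tissue isoforms, 5 passed the filter for dim probes. Among all 80 measured subunits, 48 were higher and 32 lower on the knockout arrays, and the median log2 fold change was 0.06 (0.03 over all genes). Over the 11859 genes that were above the median of every array it was -0.08, with 4915 higher and 6944 lower. The median size of the log2 fold change, whatever its sign, was 0.15 for the subunits, 0.36 over all genes and 0.27 over the 11859 genes that were above the median of every array.

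No subunit passed the test. Over the whole table, limma with Benjamini-Hochberg adjustment called 0 of 43759 probes, or 0%, at an adjusted p under 0.05, and the lowest adjusted p was 0.780. At an unadjusted p under 0.05 it called 2513 probes, and 4.71% of genes when each gene was represented by its brightest kept probe. The same rule took 2 of the 80 subunits, Atp5o and Sdhc, a share below that background. The arrays of the groups did not overlap for 30 of 80 subunits, 15 higher and 15 lower, against a background of 38.5% of all genes (17.5% higher and 21% lower). A log2 fold change of at least 0.5 in size was reached by 6 of 80 subunits, against 36.4% of all genes. Among the 11859 genes above the median of every array, 2531 reached it.

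The direction of the small shift depended on how the arrays were scaled and on the control array. With the 75th percentile 48 of 80 subunits were higher, beside 52.1% of all genes and 41.4% of the genes above the median of every array. Quantile normalization left 19 of 80 higher, beside 42% of genes, and centring each array on its median left 15, beside 37.8% of genes. The median over all genes was then -0.10 and -0.19. The arrays did not overlap for 39 subunits with quantile normalization (41.5% of genes) and for 6 with median centring (27.9% of genes). The subunits were higher on control array 1 than on control array 2 by a median log2 difference of 0.30, and on knockout array 1 than on knockout array 2 by 0.13, while the groups differed by a median of 0.06. Without control array 1 the count of higher subunits was 61 of 80, and without control array 2 it was 24. A common shift of the subunits was therefore smaller than the spread between replicates.

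**Figure D1:**
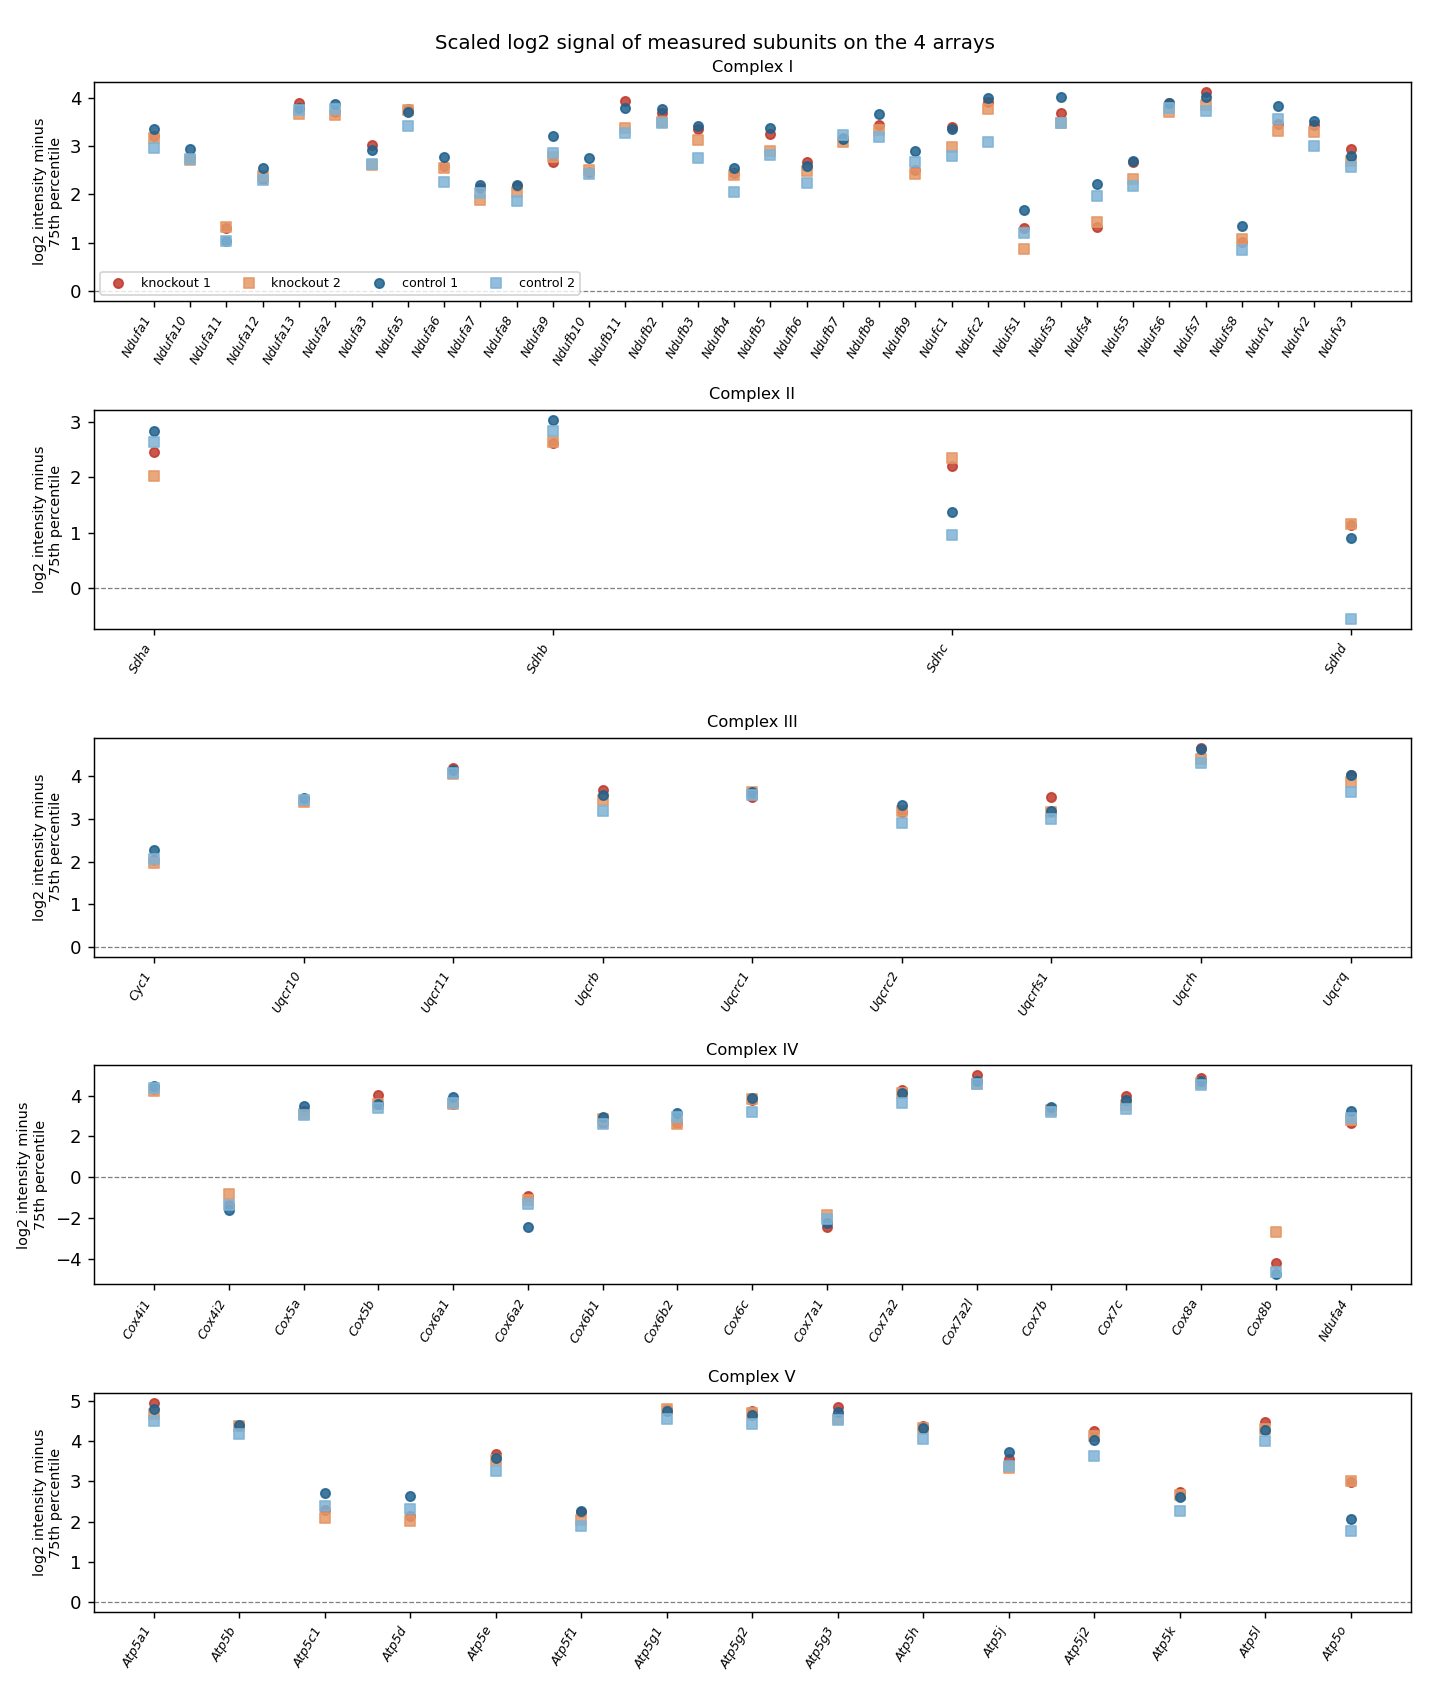
Signal of measured subunits on each of the 4 arrays, as log2 intensity minus the array's 75th percentile (dashed line at 0), by complex and in order of symbol. Points of the groups interleave for most genes. Sdhc, Sdhd, Atp5o and Ndufs4 show wider gaps, and within complex IV Cox4i2, Cox6a2, Cox7a1 and Cox8b lie below the dashed line. Heights of different genes come from different probes and are not comparable.

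Promoters of general subunits and tissue isoforms were compared for the sequence words of known regulators, as a description. Nuclear genes of respiration are known targets of NRF1, of ETS-family factors such as GABP, of YY1 and of the estrogen-related receptors. RefSeq promoters of assembly GRCm38.p6 (300 bases, from 250 before to 50 after the start) were found for 63 of 75 general subunits, as 68 promoters, and for 4 of 8 tissue isoforms. Both strands were searched for an NRF1 word (GCGCANGCG), an ETS word (CCGGAAG), a YY1 word (AAGATGGC), an ERR word (AAGGTCA) and a TATA word (TATAAA), none of which contains another. The NRF1 word was in 30.9% of general subunit promoters and in 6.25% of all 32851 promoters. The ETS word was in 23.5% against 8.86%, the YY1 word in 14.7% against 2.75% and the ERR word in 11.8% against 4.72%. The TATA word was in 8.82% against 13.6%. Among the 4 tissue isoform promoters 2 held the TATA word and 0 any of the other words. The median number of CpG dinucleotides was 19 in general subunit promoters, 8.5 in those of the tissue isoforms and 7 in all promoters. A match describes these letters and is not a binding site.

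Sequences are printed for the general and the muscle isoform of COX subunit VIII, and for the subunits of complexes V and I with the lowest limma p. Each is on the minus strand and reads 5′ to 3′, with matches to a searched word in capitals. The general isoform Cox8a (chr19:7217567-7217866, 19 CpG) has 2 ETS words near its start, while the muscle isoform Cox8b (chr7:140900397-140900696, 2 CpG) has a TATA word. Atp5o (chr16:91931581-91931880, 22 CpG) has an NRF1 word, and Ndufs4 (chr13:114388045-114388344, 12 CpG) has a YY1 word.
Cox8a: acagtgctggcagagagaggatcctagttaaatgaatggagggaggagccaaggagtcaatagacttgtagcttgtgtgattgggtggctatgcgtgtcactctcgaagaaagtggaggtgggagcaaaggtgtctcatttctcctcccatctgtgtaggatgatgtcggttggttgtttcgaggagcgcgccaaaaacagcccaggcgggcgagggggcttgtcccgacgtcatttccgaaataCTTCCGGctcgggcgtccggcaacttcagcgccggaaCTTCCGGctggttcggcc
Cox8b: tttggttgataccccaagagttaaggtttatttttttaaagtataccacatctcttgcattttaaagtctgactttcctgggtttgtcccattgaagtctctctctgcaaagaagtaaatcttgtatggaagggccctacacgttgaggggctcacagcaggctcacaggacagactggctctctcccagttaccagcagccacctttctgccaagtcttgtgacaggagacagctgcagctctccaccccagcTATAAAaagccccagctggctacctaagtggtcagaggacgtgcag
Atp5o: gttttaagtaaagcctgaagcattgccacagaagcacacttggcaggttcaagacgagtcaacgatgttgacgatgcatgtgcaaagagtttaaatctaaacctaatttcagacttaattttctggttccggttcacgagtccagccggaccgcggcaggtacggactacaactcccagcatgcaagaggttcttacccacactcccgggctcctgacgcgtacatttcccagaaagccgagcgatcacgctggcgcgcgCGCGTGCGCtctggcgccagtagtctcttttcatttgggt
Ndufs4: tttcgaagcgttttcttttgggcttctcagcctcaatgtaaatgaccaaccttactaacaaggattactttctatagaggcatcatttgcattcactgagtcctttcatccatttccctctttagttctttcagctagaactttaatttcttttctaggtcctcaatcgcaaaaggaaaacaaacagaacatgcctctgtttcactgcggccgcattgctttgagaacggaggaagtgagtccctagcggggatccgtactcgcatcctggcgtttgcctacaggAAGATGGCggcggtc

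Complex I takes electrons from NADH. Its 35 nuclear subunits divided evenly, 18 higher and 17 lower around a median log2 fold change of 0.01, and for 7, a share below the 38.5% of all genes, the arrays of the groups did not overlap. The N module, which binds and oxidises NADH, had 2 of 8 subunits higher and a median of -0.11. The Q module, which passes electrons to ubiquinone, had 4 of 8 higher and a median of 0.00. The remaining 19, mostly accessory subunits of the membrane arm, had 12 higher and a median of 0.04. Control array 1 exceeded control array 2 by a median of 0.32 in this complex, and the median fold change was 0.21 without control array 1 and -0.18 without control array 2.

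Ndufs4, an accessory subunit that stabilises the N module, had the lowest limma p of complex I. Its intensities were 2759 and 4579 in the knockout samples and 7459 and 5976 in the control samples. Both control arrays were above both knockout arrays, and the log2 fold change was -0.71 (95% interval -1.47 to 0.05; limma unadjusted p = 0.0599, adjusted p = 0.780). It stayed between -0.84 and -0.58 when any array was left out. The authors' deposited table gives Ndufs4 an unadjusted p of 0.0373 and Ndufa11 one of 0.00175, where limma gave Ndufa11 0.316. Ndufs4 is 1 of 4 of the 86 matched genes under 0.05 in that table, where 5.88% of all probes are.

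The named core subunits of complex I had small differences between the groups. Ndufv1, the flavoprotein that binds NADH, had intensities of 12051 and 16892 in the knockout samples and 22670.2 and 18050.3 in the control samples and a log2 fold change of -0.30 (95% interval -1.07 to 0.46). Ndufs1, the largest iron-sulfur subunit, had 2702 and 3077 in the knockout samples and 5112 and 3513 in the control samples, and its arrays overlapped (-0.36, 95% interval -1.33 to 0.62). Neither passed the test. Among the accessory subunits, Ndufb9 had 6261 and 9082 in the knockout samples and 11928 and 9746 in the control samples (log2 fold change -0.32), lower on both knockout arrays. Ndufa11, a membrane subunit, had 2704 and 4242 in the knockout samples and 3257 and 3129 in the control samples (log2 fold change 0.28), higher on both. The remaining subunits of the complex had log2 fold changes between -0.31 for Ndufa9 and 0.30 for Ndufc2.

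Complex II held the widest spread among general subunits. Its 2 membrane anchors were higher and its 2 catalytic subunits lower on the knockout arrays, and for all 4 the arrays of the groups did not overlap (38.5% of all genes). Sdha, the flavoprotein that oxidises succinate, had intensities of 6019 and 6880.2 in the knockout samples and 11396 and 9482 in the control samples (log2 fold change -0.49, 95% interval -1.35 to 0.37). Sdhb, the iron-sulfur subunit, had 6759.7 and 10530.3 in the knockout samples and 13079 and 10903 in the control samples (log2 fold change -0.30, 95% interval -1.03 to 0.43), and another probe gave -0.39. For both genes the knockout arrays were below the controls after scaling, and neither passed the test.

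Sdhc, an anchor that binds haem and ubiquinone, had intensities of 5037 and 8642 in the knockout samples and 4148 and 2986 in the control samples at its brighter probe. This is a log2 fold change of 1.11 (95% interval 0.27 to 1.94; limma unadjusted p = 0.0219, adjusted p = 0.780), or 2.15-fold. The dimmer probe had 2417 and 4257 in the knockout samples against 4438 and 3967 in the controls, with a log2 fold change of -0.19. The probes of this gene thus disagreed in direction, and their mean gave 0.46. Sdhd, the other anchor, had 2423 and 3762 in the knockout samples and 2983 and 1038 in the control samples. Control array 1 was near the knockout arrays and control array 2 alone was low, so the log2 fold change of 0.98 (95% interval -0.69 to 2.65) was 1.71 without control array 1 and 0.25 without control array 2. The median of the complex, 0.34, was -0.08 without control array 2 and 0.06 with the mean of all probes of a gene.

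**Figure D2:**
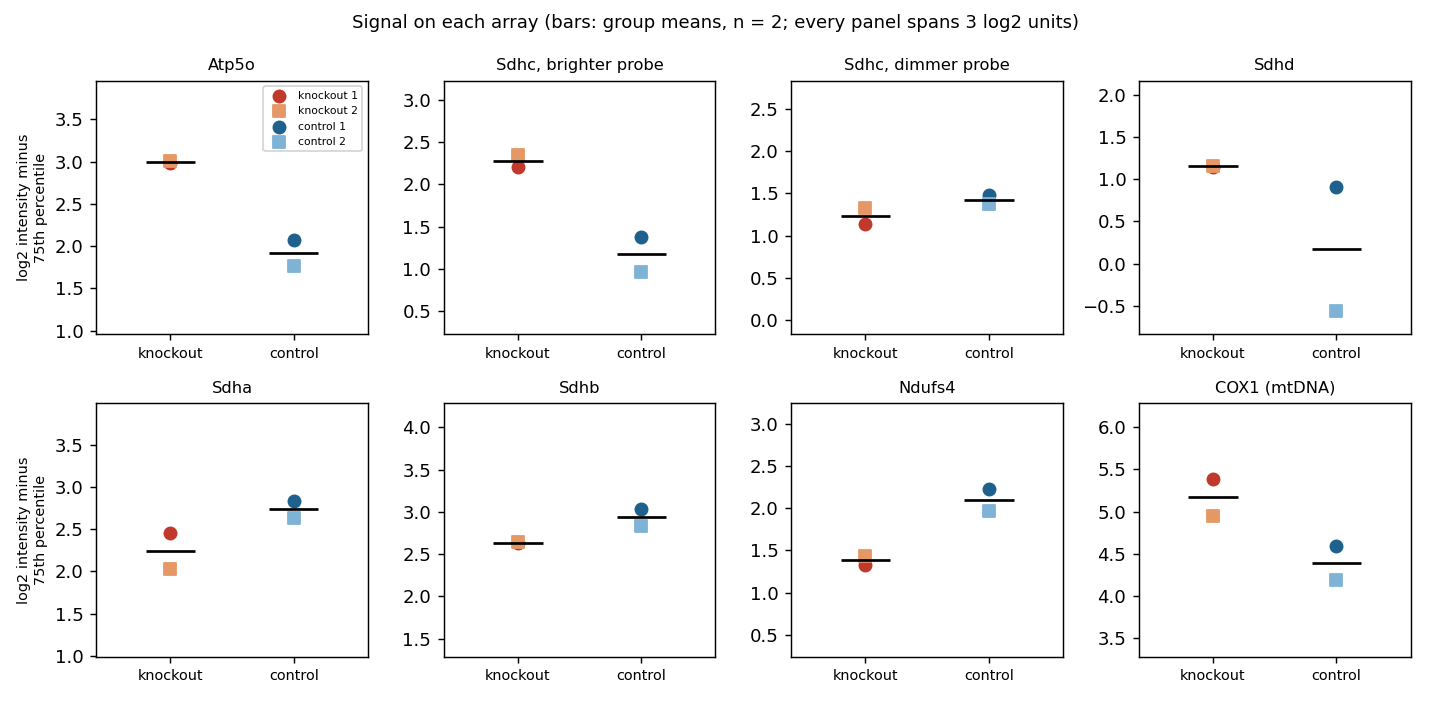
Signal on each array for 8 probes, as log2 intensity minus the array's 75th percentile. Points are arrays, bars are group means (n = 2), and every panel spans the same range. Atp5o, the brighter Sdhc probe and COX1 of mitochondrial DNA are higher on both knockout arrays, Sdha, Sdhb and Ndufs4 are lower on both, the dimmer Sdhc probe goes the opposite way to the brighter, and Sdhd is low on control array 2 alone.

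Complex III passes electrons from ubiquinol to cytochrome c and had the narrowest range of the 5 complexes. Its 9 subunits had 6 higher and 3 lower values, log2 fold changes between -0.17 and 0.24 and a median of 0.06. This median was 0.23 without control array 1 and -0.07 without control array 2. Uqcrfs1, the Rieske iron-sulfur protein, had intensities of 12496 and 15067 in the knockout samples and 14552 and 12274 in the control samples (log2 fold change 0.24, 95% interval -0.58 to 1.05), and its arrays overlapped. Cyc1, the haem subunit cytochrome c1, had 4486 and 6593 in the knockout samples and 7741 and 6375 in the control samples (log2 fold change -0.17, 95% interval -0.91 to 0.57), slightly lower on both knockout arrays. The small subunits Uqcrb and Uqcrq had log2 fold changes of 0.18 and 0.13, from intensities of 13991 and 18309.8 in the knockout samples and 18846 and 14011 in the control samples for Uqcrb and 18042 and 24902 in the knockout samples and 26102 and 18974 in the control samples for Uqcrq. Both became negative with quantile normalization (-0.07 and -0.12), with median centring (-0.04 and -0.09) and without control array 2 (-0.01 and -0.07). Uqcr10 was the only other subunit of the complex whose arrays did not overlap (log2 fold change -0.06), and it was singled out after its values were seen.

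Complex IV, cytochrome c oxidase, reduces oxygen. Its 12 general subunits had 7 higher and 5 lower values, with log2 fold changes between -0.34 and 0.32 and a median of 0.07. With the 5 measured tissue isoforms the median was 0.12, which became -0.12 with quantile normalization and -0.10 with median centring. Cox4i1, the general form of a subunit that regulates the catalytic core, had intensities of 21539 and 31079 in the knockout samples and 35663 and 31739 in the control samples (log2 fold change -0.18, 95% interval -0.90 to 0.54), lower on both knockout arrays. Cox5a had 10349 and 14444 in the knockout samples and 17951 and 12638 in the control samples, overlapping between groups, with a log2 fold change of -0.10 that became 0.12 without control array 1. Ndufa4 had 6851 and 11967 in the knockout samples and 15336 and 11327 in the control samples (log2 fold change -0.34, 95% interval -1.17 to 0.48), lower on both knockout arrays. Cox7a2l, which helps to join complexes III and IV, gave 0.14 at its brightest probe and -0.07 and 0.74 at the others. Cox7b had 11248 and 16698 in the knockout samples and 17572 and 13798 in the control samples, with a log2 fold change of 0.02.

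Of the 5 measured tissue isoforms of complex IV, 3 were higher and 2 lower on the knockout arrays, with a median of 0.40 that was 0.67 without knockout array 1 and 0.13 without knockout array 2. Cox4i2, known from lung and for use at low oxygen, had intensities of 435 and 977 in the knockout samples and 539 and 598 in the control samples and a log2 fold change of 0.40 (95% interval -0.52 to 1.32). Cox6a2, of heart and skeletal muscle, had 594 and 782 in the knockout samples and 293 and 630.3 in the control samples (log2 fold change 0.86, 95% interval -0.55 to 2.27), and control array 1 alone was low. Without that array the value was 0.28. Cox8b, also of muscle in rodents and of brown fat, had 60.5 and 270.4 in the knockout samples and 60.2 and 61.8 in the control samples. The signal was dim except on knockout array 2, and its log2 fold change of 1.27 (95% interval -0.47 to 3.00) was 0.50 without that array. Cox6b2, of testis, had 6969 and 10477 in the knockout samples and 14089.9 and 11656 in the control samples and was lower on both knockout arrays (log2 fold change -0.39, 95% interval -1.12 to 0.35). Cox7a1, of heart and muscle, had 203 and 471 in the knockout samples and 343 and 373 in the control samples and a log2 fold change of -0.01. None passed the test.

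The other 3 tissue isoforms did not pass the filter. Cox7b2, of testis, had intensities of 5.30, 155.0, 8.05 and 11.1 on knockout arrays 1 and 2 and control arrays 1 and 2, and Cox8c, of testis, had 5.35, 203.0, 7.81 and 33.8. Ndufa4l2, which is induced by low oxygen, had 29.0, 52.4, 52.7 and 33.2. Knockout array 2, whose limit of detection was the highest, was alone in a raised value for Cox7b2 and Cox8c.

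Set against the general partner within each array, 3 isoforms were relatively higher on the knockout arrays. The log2 difference from the partner changed by 0.58 for Cox4i2 against Cox4i1, by 1.08 for Cox6a2 against Cox6a1 and by 1.14 for Cox8b against Cox8a, with no overlap between groups. It changed by -0.37 for Cox6b2 against Cox6b1, again with no overlap, and by -0.30 for Cox7a1 against Cox7a2, where the arrays overlapped. Among single genes 38.5% had no overlap, and no such share was computed for pairs. The two-sided exact permutation p was 0.333, the smallest that 2 arrays against 2 can give, for the 4 pairs without overlap, and 0.667 for Cox7a1, so none passed a threshold of 0.05. Single arrays decided the size of most of these changes. The change of Cox8b was 0.27 without knockout array 2 and 2.02 without knockout array 1, and that of Cox4i2 was 0.26 and 0.90. The change of Cox6a2 was 0.35 without control array 1 and 1.81 without control array 2. For Cox7a1 it was 0.06 without knockout array 1 and 0.04 without control array 2, and -0.66 and -0.63 without knockout array 2 and control array 1. The change of Cox6b2 ranged from -0.48 to -0.27 when any array was left out. Before scaling, the dim Cox8b signal on knockout array 1 was near that of the controls (60.5 against 60.2 and 61.8). Its partner Cox8a was lower there (31457 against 41131 and 35453). Cox4i2 had 435 on that array against 539 and 598 on the controls. The part of background signal in these differences was not tested. The general partners had small values, -0.21 for Cox6a1, -0.01 for Cox6b1, 0.29 for Cox7a2 and 0.12 for Cox8a. Of these, Cox8a became -0.12 with quantile normalization and -0.10 with median centring, and Cox6b1 became 0.07 without knockout array 1 and 0.14 without control array 1. Of 8 markers of striated muscle, 4 passed the filter and were higher on the knockout arrays (median log2 fold change 0.31), with summed intensities of 1865 and 2919 against 2349 and 2293. The markers Ckm, Tnnt2, Mb and Actc1 were below the filter. The part of these markers in the isoform values was not tested.

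**Figure D3:**
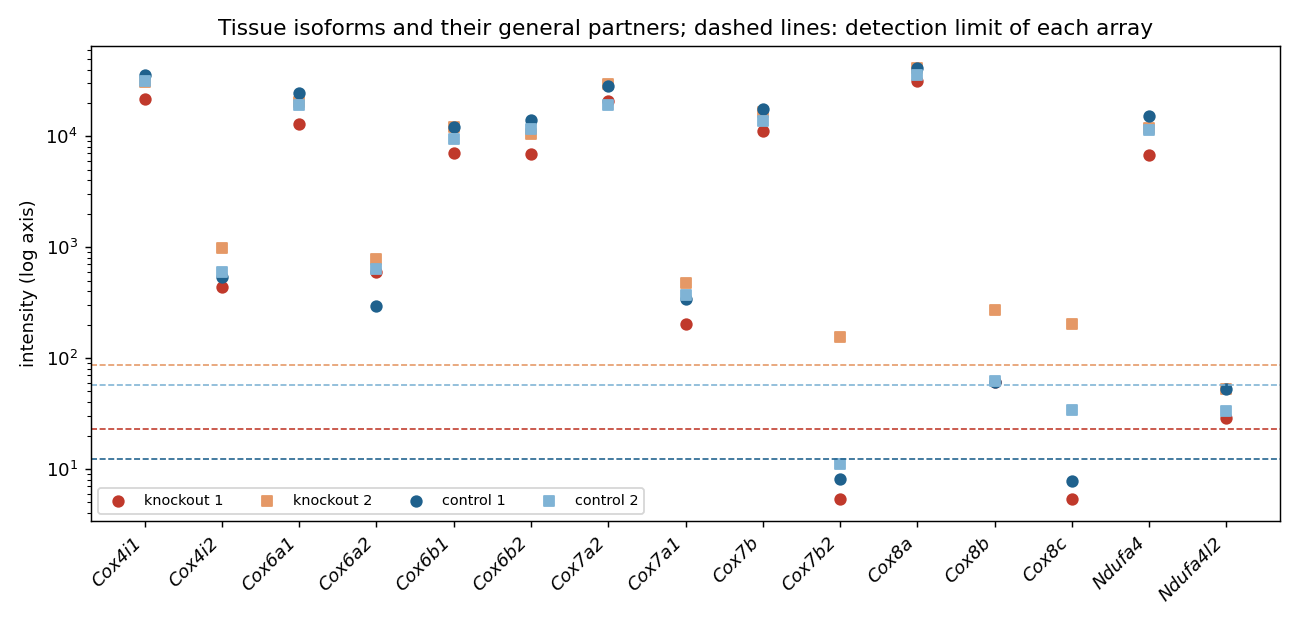
Intensity (log axis) of the tissue isoforms and their general partners on the 4 arrays, with each array's limit of detection as a dashed line in its colour. The general forms have closely grouped points, Cox8b is raised on knockout array 2 alone, Cox7b2 and Cox8c lie below the limits on 3 of 4 arrays, and Ndufa4l2 does on 2 of 4. Heights of different genes come from different probes and are not comparable.

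Complex V had the highest share of subunits that were higher on the knockout arrays, 12 of 15, with a median log2 fold change of 0.15. Of all genes 52.1% were higher, and of the genes above the median of every array 41.4%. For 9 of the 15 the arrays of the groups did not overlap (38.5% of all genes). With quantile normalization the median was -0.08 and with median centring -0.06, and it was 0.30 without control array 1 and 0.03 without control array 2. Atp5o, the oligomycin sensitivity protein that ties the peripheral stalk to the catalytic head, stood apart. Its intensities were 8637 and 13555 in the knockout samples and 6708 and 5191 in the control samples, and both knockout arrays were above both controls. The log2 fold change was 1.07 (95% interval 0.30 to 1.85; limma unadjusted p = 0.0186, adjusted p = 0.780), or 2.11-fold, from a single probe. It stayed between 0.92 and 1.23 when any array was left out and was 0.99 with quantile normalization and 0.86 with median centring.

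The catalytic head of complex V was mixed. Atp5a1 and Atp5b, the alpha and beta subunits that form the catalytic sites, had log2 fold changes of 0.15 and 0.09, from intensities of 33801 and 43299 in the knockout samples and 44820.0 and 34942 in the control samples for Atp5a1 and 22782 and 35076 in the knockout samples and 33623 and 27709 in the control samples for Atp5b. Their arrays overlapped, and both values became negative with quantile normalization (-0.09 and -0.19) and median centring (-0.07 and -0.13). The 3 subunits of the central stalk went different ways. Atp5c1, the gamma subunit, had 5346 and 7251 in the knockout samples and 10400.1 and 7985 in the control samples (log2 fold change -0.35, 95% interval -1.15 to 0.45), and Atp5d, the delta subunit, had 4851 and 6815 in the knockout samples and 9862 and 7673 in the control samples (log2 fold change -0.40, 95% interval -1.18 to 0.38), both lower on both knockout arrays. Atp5e, the epsilon subunit, was singled out after its values were seen to complete the stalk. It had 14051 and 19710.0 in the knockout samples and 19052 and 14624 in the control samples (log2 fold change 0.20, 95% interval -0.59 to 0.98), and its arrays overlapped. None of the 3 passed the test.

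Subunits of the membrane part had positive values with the 75th percentile. The c ring, through which protons turn the enzyme, is encoded by Atp5g1, Atp5g2 and Atp5g3, which make the same mature protein. Their log2 fold changes were 0.15, 0.20 and 0.06, all of which became negative with quantile normalization and median centring. Another probe of Atp5g1 gave 0.73. Atp5j2, Atp5k and Atp5l, other membrane subunits, had log2 fold changes of 0.36, 0.26 and 0.24. Of these, Atp5k and Atp5l were singled out after their values were seen. The intensities of Atp5j2 were 20888 and 29375 in the knockout samples and 25922 and 19016 in the control samples. For these 3 genes the arrays of the groups did not overlap (38.5% of all genes, 17.5% higher and 21% lower), and none passed the test.

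Probes of a gene often disagreed. Of 28 matched genes with more than 1 kept probe, 14 had probes with opposite signs, and 3 had probes more than 1 log2 unit apart. Besides Sdhc these were Atp5f1, a stalk subunit, and Cox7c, both singled out after their values were seen. A dimmer probe of Atp5f1 had 4042 and 5725 in the knockout samples against 2742 and 1894 in the controls (log2 fold change 1.28), whereas the brightest probe gave 0.06. The dimmest probe of Cox7c had 2866 and 1841 against 475 and 375 (log2 fold change 2.64), whereas the brightest gave 0.20. The annotation used here does not say which transcripts each probe reaches.

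**Figure D4:**
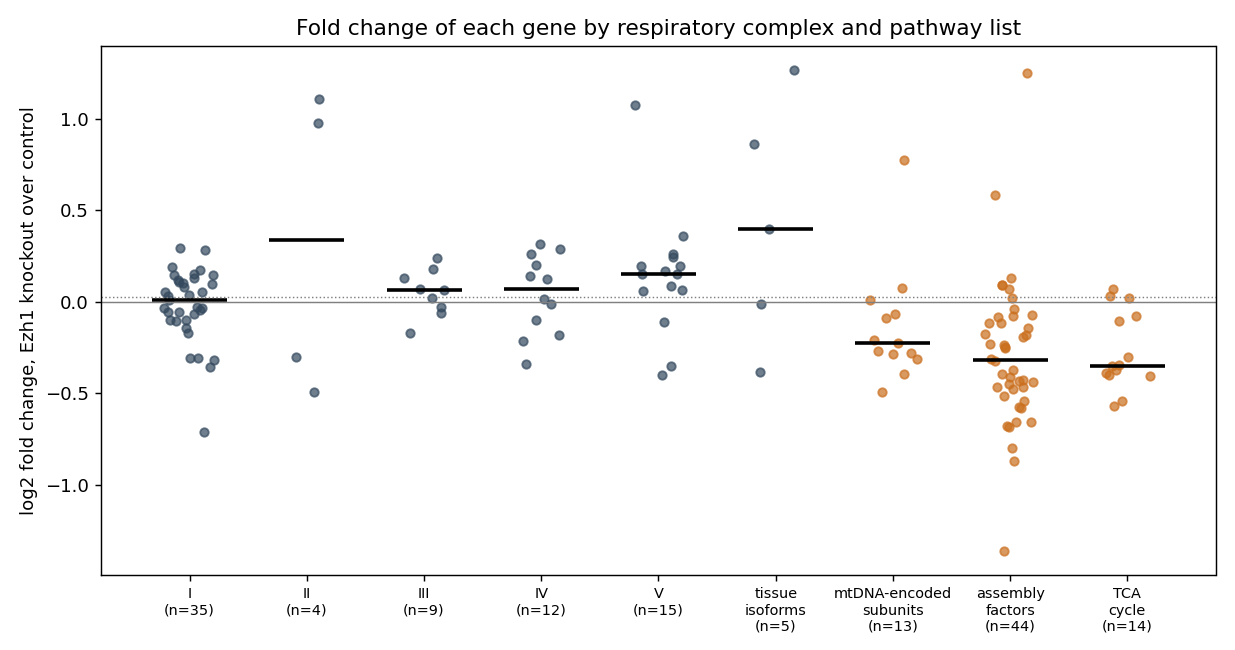
Log2 fold change (knockout over control) of each gene, by complex and list. Points are genes, bars are medians and the dotted line is the median of all genes, 0.03. Tissue isoforms are drawn apart, so complex IV shows its 12 general subunits (median 0.07). Complexes I and III hug 0, complex II splits, and most assembly factors and genes of the citric acid cycle lie below 0.

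Subunits encoded by mitochondrial DNA had mostly lower values. Of 13, 3 were higher and 10 lower (median log2 fold change -0.22). This median was 0.00 without knockout array 2 and 0.02 without control array 1. Among all genes above the median of every array, 4915 were higher and 6944 lower (median -0.08). COX1, the catalytic subunit of complex IV, went the opposite way, with intensities of 45746 and 52320.2 in the knockout samples and 38492 and 28052 in the control samples (log2 fold change 0.77, 95% interval -0.15 to 1.70). Both knockout arrays were above both controls. The complex I subunits ND2, ND5 and ND4L had log2 fold changes of -0.49, -0.39 and -0.31, lower on both knockout arrays. ND2 had 31004 and 34885 in the knockout samples and 61163 and 46279 in the control samples. Relative to the median of the general nuclear subunits, the median of these 13 genes was 1.47 and 1.31 log2 units higher on the knockout arrays against 1.68 and 1.62 on the controls. This difference was smaller on each knockout array than on either control, by a mean of 0.26 log2 units (two-sided exact permutation p = 0.333, the smallest that 2 arrays against 2 can give). The nuclear subunit Ndufab1 had a log2 fold change of -0.05 and Usmg5 of 0.10.

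Most genes that assemble the complexes were lower on the knockout arrays. Of 46 assembly factors 44 were measured, 7 higher and 37 lower (median log2 fold change -0.32). Of all genes 47.9% were lower. For 28 factors both knockout arrays were below both controls, beside the background of 21% of all genes. Of the 11859 genes above the median of every array, 6944 were lower. For 3145 of these 11859 both knockout arrays were below both controls. At an unadjusted p under 0.05 limma took 2 of the 44, a share close to the 4.71% of all genes, and none passed after adjustment (lowest adjusted p 0.780). Acn9, an older name of Sdhaf3, which in yeast and fly helps to mature the iron-sulfur subunit of complex II, had 87.1 and 110.1 in the knockout samples and 338 and 246 in the control samples (log2 fold change -1.36, 95% interval -2.22 to -0.49). Cox17, a copper chaperone of complex IV, went the other way with 5491 and 6510.3 in the knockout samples and 3956 and 2103 in the control samples (log2 fold change 1.25, 95% interval 0.06 to 2.44). Foxred1, needed for complex I, and Bcs1l, which inserts the Rieske protein into complex III, had -0.68 and -0.66, lower on both knockout arrays. The difference between assembly factors and subunits was not tested. The median of the factors stayed negative in every setting tried, between -0.54 with median centring and -0.18 without control array 1.

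The citric acid cycle, which feeds the chain, and the regulators of mitochondrial genes also had more lower than higher values. Of 14 cycle genes 3 were higher and 11 lower, with a median of -0.35, which was -0.08 without control array 1. Of the 11859 genes above the median of every array, 4915 were higher and 6944 lower. For 5 of the 14 both knockout arrays were below both controls (21% of all genes). Idh3b, a subunit of NAD-dependent isocitrate dehydrogenase, had 2975 and 4621 in the knockout samples and 6829 and 5641 in the control samples (log2 fold change -0.54). The shared dehydrogenase subunit Dld and the 2-oxoglutarate dehydrogenase subunits Dlst and Ogdh had -0.57, -0.40 and -0.35, all lower on both knockout arrays. Of 22 genes of mitochondrial gene expression 21 were measured, 6 higher and 15 lower, with a median of -0.32. Gabpb2 and Gabpb1, partners of the ETS factor GABP, had -0.75 and -0.49. Mterfd1, an older name of Mterf3, a repressor of mitochondrial transcription, had -0.64, and Polg2, the accessory subunit of the mitochondrial DNA polymerase, 0.72. None of these genes passed the test.

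Carriers and electron shuttles divided evenly. Of 18, 16 were measured, 8 higher and 8 lower (median log2 fold change -0.02). Dhodh, Gpd2 and Etfdh, which feed electrons to ubiquinone from outside complexes I and II, had -0.42, -0.25 and -0.31. Ucp1, the uncoupling protein of brown fat, had 23.4 and 371 in the knockout samples and 7.25 and 134 in the control samples. It was near the limit of detection on knockout array 1 and below it on control array 1. The gene thus passed the filter only through the knockout arrays. Its log2 fold change of 1.78 (95% interval -3.87 to 7.43) became -0.35 without control array 1. None passed the test. Among the symbols that are no subunit, Atp5s had 463 and 568 in the knockout samples and 1125 and 818 in the control samples (log2 fold change -0.70, 95% interval -1.59 to 0.18), lower on both knockout arrays.

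**Figure D5:**
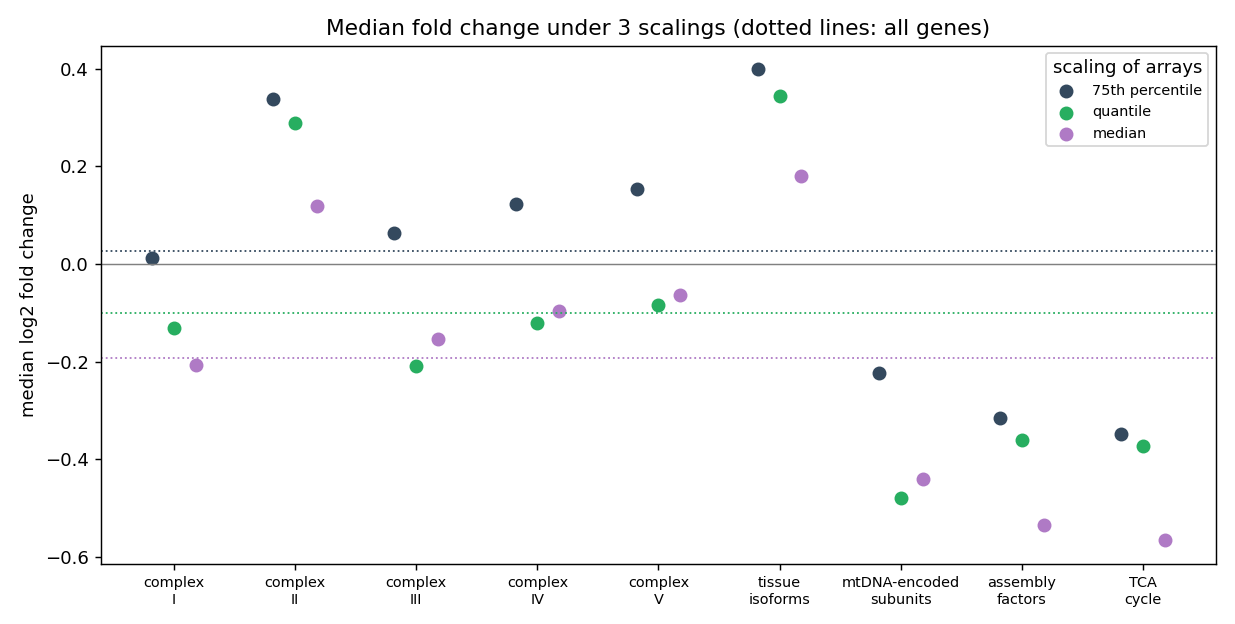
Median log2 fold change of each complex and list under 3 scalings of the arrays, with the median of all genes under the same scaling as a dotted line. Complexes I, III, IV and V lie above 0 with the 75th percentile and below 0 with the others (complex V 0.15, -0.08 and -0.06), whereas the assembly factors, the citric acid cycle genes and the subunits of mitochondrial DNA lie below 0 under all 3.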

How the data were processed

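For 4 one-colour (Cy3) arrays the deposited values are linear intensities of each probe. The submitters' processing notes name Agilent Feature Extraction, without a version. Its columns differed in their percentiles, and it held no background, detection or saturation flags and no control spots. Per the labels' protocols, small amounts of total RNA were amplified over cycle numbers that differed between samples before labelling, which could shift signals between samples. The authors' deposited table of comparisons gives a fold ratio, a direction and an unadjusted p-value per probe, per the file headers, and its log2 ratios differed by at most 0.0025 from those computed here. The deposited series matrix table, on a log2 scale, was not used, since its values did not belong to the probe IDs beside them. Its direction is that of the signal, and its centring per array or gene is not stated.

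Intensities under 1 were set to 1, log2 was taken and each array's 75th percentile was subtracted. Detection meant a signal above the 20th percentile of the array. The filter kept 43759 of 55677 probes, those detected on both knockout or both control arrays, and a gene was read from its brightest kept probe (19287 genes), so 83 of the 86 matched genes were measured. The groups were compared with limma 3.58.1 (lmFit and eBayes, two-sided, no block) in R 4.3.3 with Benjamini-Hochberg adjustment over all kept probes. Residual degrees of freedom were 2 and prior ones 1.78, and the number of arrays limits the precision. Fold changes are knockout over control, and intervals are at 95%. The code of the fit was run on simulated data with less noise than these arrays and larger changes than those of the subunits. This does not show the power of the test here. Tables were handled in Python 3.11.15 with pandas 2.3.3 and numpy 2.4.6, and exact permutation tests of within-array differences were run with scipy 1.17.1.

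The members and the gene lists were chosen with earlier results of these data known, and the modules of complexes, the promoter words and the printed promoters were chosen after values were seen. Lists were found under current or older symbols, and 4 of 193 list symbols were not matched. Named with values are the 4 of lowest p of each complex and list, the catalytic or core subunits, and the isoforms with their partners. These were 57 measured genes in all. Ezh1, cell markers, Atp5s, Ndufab1 and Usmg5 were named apart from this rule. Any other gene is said to be singled out or is part of a range. A gene that the rule takes is not reported here. Alternatives were other scalings, filters, an offset of 50, the mean of a gene's probes, a replicate block, an equal-variance two-sample test and leaving out each array.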

Additional observations from a re-analysis of the deposited data

How the results depend on the processing

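With 2 arrays a group, small subunit differences lie within the spread between arrays, and no probe passed the adjusted threshold in any setting run (0 calls each, with 888 to 9158 probes at an unadjusted p under 0.05). With quantile normalization, median centring and an array left out, in that order, the count of higher subunits was 19, 15 and 24 to 61 (48 as reported). The count with arrays that do not overlap was 6 with median centring and 41 to 69 with an array left out, where fewer arrays make overlap rarer (30). The count at an unadjusted p under 0.05 was 0 with median centring, 1 with the mean of a gene's probes, 4 with the equal-variance two-sample test and 0 to 2 with an array left out (2). Medians with quantile normalization were -0.21 for complex III, -0.12 for complex IV and -0.084 for complex V, and with median centring 0.12 for complex II, -0.155 for III, -0.10 for IV, -0.064 for V, -0.16 for the general subunits and -0.535 for the assembly factors. The cause was not tested. With the mean of a gene's probes the median of complex II was 0.056. With an array left out, medians ranged from -0.18 to 0.21 for complex I, -0.079 to 0.56 for II, -0.072 to 0.23 for III, -0.0043 to 0.20 for IV, 0.03 to 0.30 for V, 0.13 to 0.67 for the tissue isoforms, -0.13 to 0.23 for the general subunits, -0.44 to 0.02 for the subunits of mitochondrial DNA, -0.44 to -0.18 for the assembly factors and -0.44 to -0.08 for the citric acid cycle. Of 57 named genes, none past the threshold, 11 changed sign with quantile normalization, 11 with median centring, 1 with the offset, 6 without knockout array 1, 3 without control array 1, 6 without control array 2 and 0 in each other setting. Other kept probes of the named members, and leaving out each array for the within-array differences, were added as alternatives after the data were seen. The difference between subunits of mitochondrial DNA and nuclear subunits changed by -0.34 to -0.18 with an array left out. The deviations of arrays with the same replicate number correlated at 0.69, but 2 pairs do not show pairing. A replicate block gave 0 calls, 9158 probes at an unadjusted p under 0.05 and a lowest adjusted p of 0.206, with 3 subunits at an unadjusted p under 0.05. A fit of the series matrix values was not run, because those values stand beside other probe IDs.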

Other observations

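The series matrix table held values for 16370 probes. All 16370 sets of 4 values matched the scaled log2 intensities of some probe within 0.02, but only 611 did so under their own probe ID. Over 1097 genes with 2 such probes, the mean levels of the probes correlated across genes at r = -0.0048 in that table and at 0.56 in the intensity table (genes are not independent replicates). Its column medians were -2.59 and -2.05 for the knockout arrays and -3.34 and -2.54 for the controls.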
